A study of Arabidopsis thaliana with 96 samples.

Results

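Auxin is the hormone that sets much of root growth and branching, and its level in a cell depends on synthesis, transport and removal. Nuclear auxin signalling releases response genes from repression by Aux/IAA proteins, and many Aux/IAA genes are themselves switched on by auxin, as are genes of the LBD and GH3 families. GH3 enzymes join auxin to amino acids, and oxidation by dioxygenases is another known route by which plants remove the hormone.

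The data described here are the RNA levels of 5 Arabidopsis thaliana genes of auxin response and inactivation, out of 13356 genes that had a probe set paired with exactly 1 gene. LBD29 (AT3G58190) encodes a LOB-domain transcription factor that promotes the start of lateral roots. IAA29 (AT4G32280) encodes an Aux/IAA protein. WES1 (AT4G27260), also called GH3.5, and GH3.1 (AT2G14960) belong to the GH3 family of conjugating enzymes. AT1G14120 was listed with them as a dioxygenase gene, and the gene table gives it no other name. Each gene was read by 1 probe set. The genes were chosen by name from a reading in which their salt responses were known, so their changes in salt are given as a description without a test.

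Root cells of the Columbia ecotype, from seedlings 5 to 7 days after germination, were protoplasted and sorted by a green fluorescent protein reporter and hybridised to 96 Affymetrix ATH1 arrays. The reporters were WER::GFP for the epidermis, COR::GFP for the cortex, SCR::GFP for the endodermis and WOL::GFP for the stele, the tissue inside the endodermis that holds the vessels. For every reporter, 3 arrays came from roots on standard medium for 1 h, 3 from standard medium for 48 h, and 3 each from roots moved to 140 mM NaCl for 1, 3, 8, 20, 32 or 48 h. Cell type and reporter line cannot be told apart, and all 96 samples went through protoplasting, which itself can change RNA levels. Whether the 3 samples of a group were grown as separate cultures is not in the labels. The p-values therefore measure only how far these samples spread, part of which may be technical.

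Levels are the deposited log2 expression values, on which a difference of 1 is a 2-fold difference. A gene was tested if its mean reached 5 in at least 1 of the 32 groups, which left 7281 genes, and a difference counted as called if its adjusted p was under 0.05 and its size at least 2-fold. All 5 genes passed this filter, by different routes. WES1 reached the minimum in 32 groups. GH3.1 reached it in 12, and the only standard groups among them were those of the epidermis. LBD29 reached it in 4 groups, the endodermis in standard medium and the stele at 1 and 3 h of salt. AT1G14120 did so only in the cortex at 32 and 48 h of salt, and IAA29 only in the endodermis after 48 h on standard medium. GH3.1, LBD29, AT1G14120 and IAA29 thus passed through groups in which they were high, so some difference between groups was built into their selection.

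Few markers of the sorted cells could be read. Only GSO1 of the 5 listed endodermis markers had a probe set paired with 1 gene here, only LHW of 9 stele markers and only EXPA7 of 5 epidermis markers. GSO1, a receptor kinase gene of the endodermal barrier, averaged 10.32 in the endodermis in standard medium and between 9.71 and 11.23 in salt. In standard medium EXPA7, an expansin gene of root hair cells, averaged 9.16 in the epidermis and 9.99 in the stele, and LHW averaged 4.54 in the stele and 4.57 in the endodermis, so neither was highest in the cells it was listed for. Both listed cortex markers, AT1G62510 and AT1G09750, could be read. 3 arrays stood apart from their groups, with a mean correlation to the other arrays of the group of 0.933 for stele standard 1 h replicate 3, and of 0.940 and 0.943 for epidermis standard 48 h replicates 1 and 3.

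In standard medium the 5 genes were highest in different tissues. LBD29 and IAA29 were highest in the endodermis, GH3.1 was highest in the epidermis, and WES1 was lowest there. IAA29 entered the tests only through a standard group, so its differences between cell types are given without a p. Of the other 4 genes, 3 differed by at least 2-fold over the 4 cell types in limma's moderated F test with Benjamini-Hochberg adjustment, which called 33.0% of all tested genes. Between pairs of cell types, 9 of 24 combinations of these 4 genes were called, against 14.2% of such combinations over all tested genes. LBD29 also passed the filter through standard groups of the endodermis, beside 2 salt groups of the stele. In standard medium GH3.1 reached the minimum only in the epidermis, beside salt groups of the epidermis, cortex and stele. The standard arrays also serve below as the baseline of the salt changes, which were known when the genes were chosen. The p-values of the standard differences, those of LBD29 and GH3.1 above all, are therefore not free of how the genes were selected.

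LBD29 averaged 5.56 ± 0.54 (SD, n = 6) in the endodermis and 4.63 ± 0.51 in the stele, the cortex followed with 3.58 ± 0.17 and the epidermis with 3.16 ± 0.28, and its range of 2.40 had a limma adjusted p of 4e-21. The endodermis was higher than the epidermis by 2.40 ± 0.17 (SE; limma adjusted p = 1.5e-20) and higher than the cortex by 1.98 ± 0.17 (limma adjusted p = 6.71e-16), with no overlap of arrays. The lead of the endodermis over the stele, 0.93 ± 0.17 (limma adjusted p = 6.16e-06), stayed under 2-fold and the arrays overlapped. The stele exceeded the cortex by 1.05 ± 0.17 (limma adjusted p = 6.18e-07). That last call was lost, with differences of 0.92, 0.96 and 0.98, when stele standard 1 h replicate 2 or 1 or stele standard 48 h replicate 1 was left out. Without the 3 arrays that stood apart, the stele exceeded the cortex by 1.26 and the endodermis exceeded the stele by 0.71.

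IAA29 was ordered in the same way, with 4.98 ± 0.31 (SD, n = 6) in the endodermis, 4.14 ± 0.57 in the stele, 3.44 ± 0.26 in the cortex and 3.26 ± 0.24 in the epidermis. The endodermis lay above the epidermis and the cortex on every array, by 1.72 and 1.54 (SE 0.18 each). Its difference from the stele was 0.84 ± 0.18 (SE), under 2-fold and with overlapping arrays. The cortex and the epidermis differed by 0.17 ± 0.18 (SE), which is no more than the error.

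WES1 had the highest levels of its own in the stele, 8.83 ± 0.44 (SD, n = 6), then 8.61 ± 0.34 in the endodermis, 8.23 ± 0.14 in the cortex and 7.46 ± 0.31 in the epidermis (range 1.37, limma adjusted p = 4.91e-07). The epidermis was lower than the stele by 1.37 and lower than the endodermis by 1.14 (SE 0.22 each). The neighbours stele and endodermis differed by 0.22 ± 0.22 (SE; limma adjusted p = 0.423), which is no more than the error.

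GH3.1 ran the other way and averaged 6.34 ± 0.68 (SD, n = 6) in epidermal cells, 4.43 ± 0.31 in cortical cells, 4.43 ± 0.22 in the stele and 3.69 ± 0.22 in the endodermis, a range of 2.65 (limma adjusted p = 4.42e-19). All 6 epidermis arrays lay above every array of the other cell types, and the differences from the cortex, stele and endodermis were 1.91, 1.91 and 2.65 (SE 0.20 each). The cortex and stele means were equal to 2 decimals.

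AT1G14120 was near the bottom of the arrays in all 4 cell types, between 2.55 and 2.73 on average, with only 8.43% to 14.7% of all probe sets lower. Its range of 0.18 (limma adjusted p = 0.474) was not called.

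**Figure D1:**
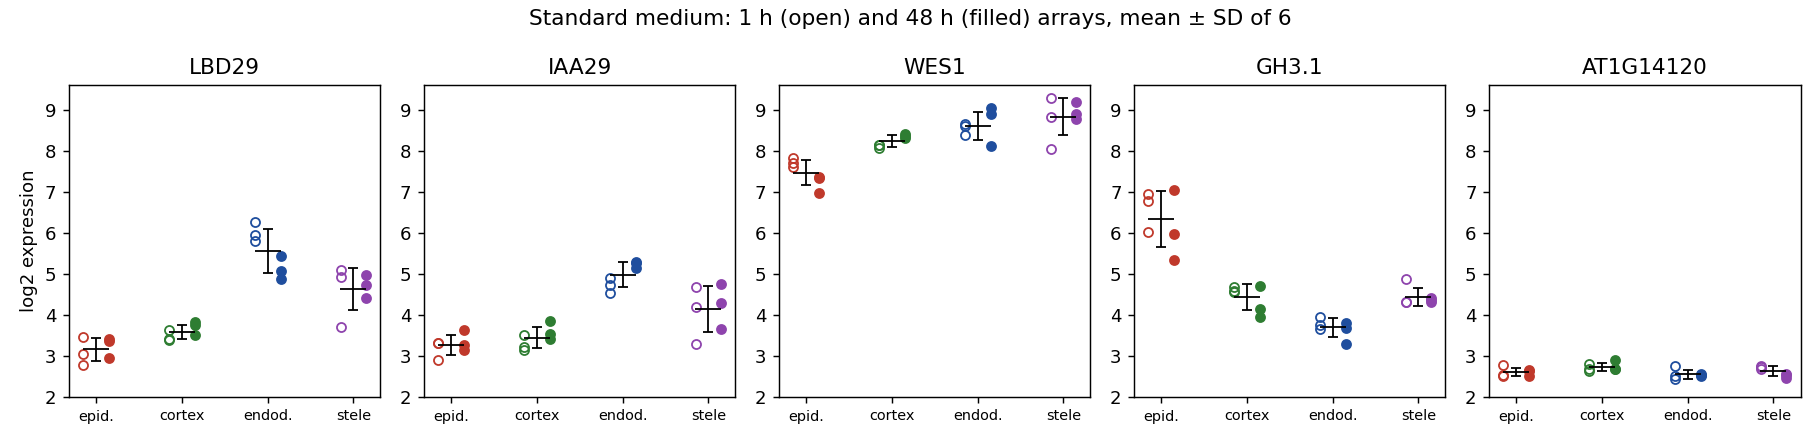
Level of each gene (log2 expression) in standard medium, by cell type, with 1 point per array (open, 1 h; filled, 48 h) and the mean ± SD of 6 arrays. LBD29 and IAA29 are highest in the endodermis, GH3.1 in the epidermis, and AT1G14120 lies between 2.43 and 2.89 on all arrays.

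A longer stay on standard medium gave no called difference in any of the 20 gene and cell type combinations in limma's moderated test, against 3.2% of such combinations over all tested genes, and 2 of the 20 had an unadjusted p under 0.05, LBD29 and IAA29 in the endodermis, for IAA29 in the group through which it passed the filter. LBD29 in the endodermis was 6.0 ± 0.24 at 1 h and 5.12 ± 0.28 at 48 h (SD, n = 3 each). The arrays did not overlap, and the difference of -0.88 ± 0.24 (SE; limma adjusted p = 0.0118) stayed under 2-fold. The other 19 combinations had limma adjusted p-values of 0.211 or more.

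In salt, LBD29 and IAA29 in the endodermis lay below their standard levels from the first hours to the end, and WES1 lay below its own from 8 to 32 h. In the stele LBD29 was above standard at 1 and 3 h and GH3.1 at 20 h. AT1G14120 was far above standard in the cortex from 20 h on. Each salt group of 3 arrays is set against the 6 standard arrays of the same cell type, so the 6 comparisons of a cell type share these arrays. In sorted cells that are pooled for an array, a change in RNA per cell and a change in which cells are present cannot be told apart. Over the 120 gene and comparison combinations, 7 passed the call rule as higher and 19 as lower, where 9.25% and 9.8% of such combinations did over all tested genes. All 3 salt arrays lay above all 6 standard arrays in 14 combinations and below them in 23, where the shares of combinations over all tested genes were 25.2% and 20.4%. Since the genes were picked for these changes, nothing is read from the counts.

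**Figure D2:**
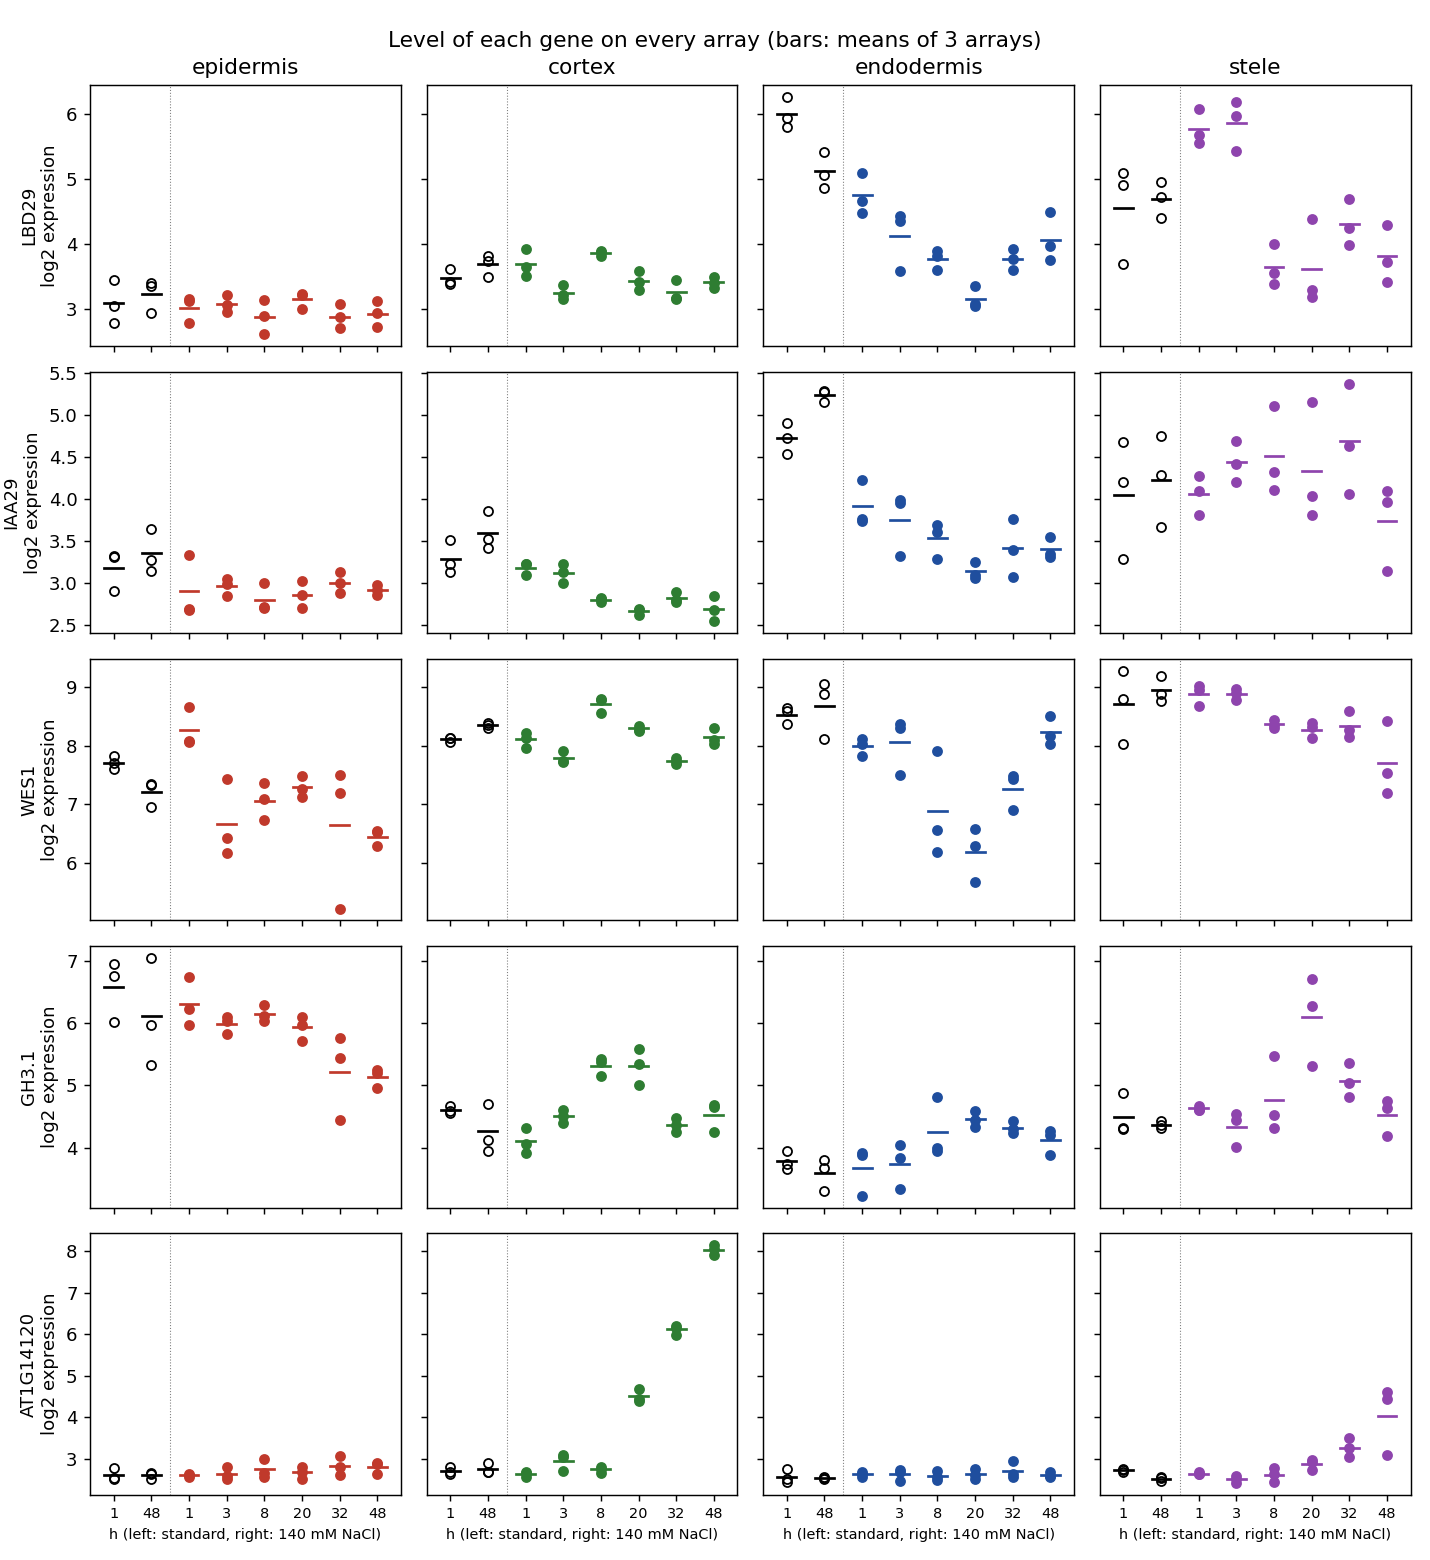
Level of each gene (log2 expression, y axes differ by gene) on every array, by cell type, with open points for standard medium, filled points for NaCl and bars for means of 3 arrays. The endodermis column shows LBD29 and IAA29 lowest at 20 h (means 3.16 and 3.14), and the cortex column shows AT1G14120 at 4.51, 6.12 and 8.04 at 20, 32 and 48 h.

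LBD29 in the endodermis had standard levels of 5.80, 6.27 and 5.94 at 1 h and 4.87, 5.42 and 5.06 at 48 h. In salt it read 4.48, 4.67 and 5.09 at 1 h, and 3.58, 4.35 and 4.43 at 3 h. It was lowest at 20 h, with 3.04, 3.35 and 3.08, and stood at 3.75, 4.50 and 3.97 at 48 h. From 3 h on every salt array was below every standard array, and the differences were -1.44, -1.79, -2.40, -1.79 and -1.49 at 3, 8, 20, 32 and 48 h (SE 0.21 each). At 20 h this is a level 5.28-fold lower than standard, close to the epidermis level in standard medium. The size depended on the baseline, since LBD29 was itself lower at 48 h than at 1 h on standard medium: at 48 h of salt the difference from the 48 h standard group was -1.05, and at 1 h of salt that from the 1 h group was -1.25, neither with overlapping arrays.

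In the stele LBD29 was above standard first and lower later. Standard levels were 4.91, 5.09 and 3.70 at 1 h and 4.96, 4.41 and 4.72 at 48 h. Salt gave 5.56, 6.08 and 5.68 at 1 h and 5.97, 5.43 and 6.19 at 3 h, all above the standard arrays. By 8 h the levels were 3.55, 4.00 and 3.38, and they overlapped with the lowest standard array. The differences were 1.14 and 1.23 at 1 and 3 h and then -0.99, -1.01, -0.32 and -0.82 from 8 to 48 h (SE 0.21 each). The standard value of 3.70 came from the array that stood apart. Without it the differences were 0.93 at 1 h, 1.01 at 3 h and -1.21, -1.23, -0.54 and -1.04 from 8 to 48 h. The salt arrays then lay below all remaining standard arrays at 8, 20 and 48 h and overlapped with them at 32 h. LBD29 in the epidermis stayed between 2.61 and 3.45 on all arrays, and in the cortex between 3.16 and 3.93.

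IAA29 in the endodermis was below standard at every salt time. Its standard arrays read 4.73, 4.90 and 4.54 at 1 h and 5.15, 5.29 and 5.27 at 48 h. In salt the levels were 4.23, 3.74 and 3.76 at 1 h, and 3.09, 3.25 and 3.06 at 20 h. No salt array reached the lowest standard array at any of the 6 times, and the differences were -1.07, -1.23, -1.45, -1.85, -1.57 and -1.58 from 1 to 48 h (SE 0.22 each). Their size depended on the baseline. Against the standard group of the same time they were -0.81 at 1 h, under 2-fold, and -1.84 at 48 h, neither with overlapping arrays. In the cortex, where IAA29 started lower, salt arrays were below all standard arrays from 8 h on, with differences of -0.64, -0.77, -0.62 and -0.75. In the stele the salt arrays overlapped with standard throughout, and single arrays reached 5.11, 5.15 and 5.37 at 8, 20 and 32 h. LBD29 and IAA29, which shared their order of cell types in standard medium, therefore differed in the stele, where LBD29 was above standard at 1 and 3 h and IAA29 overlapped with it.

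**Figure D3:**
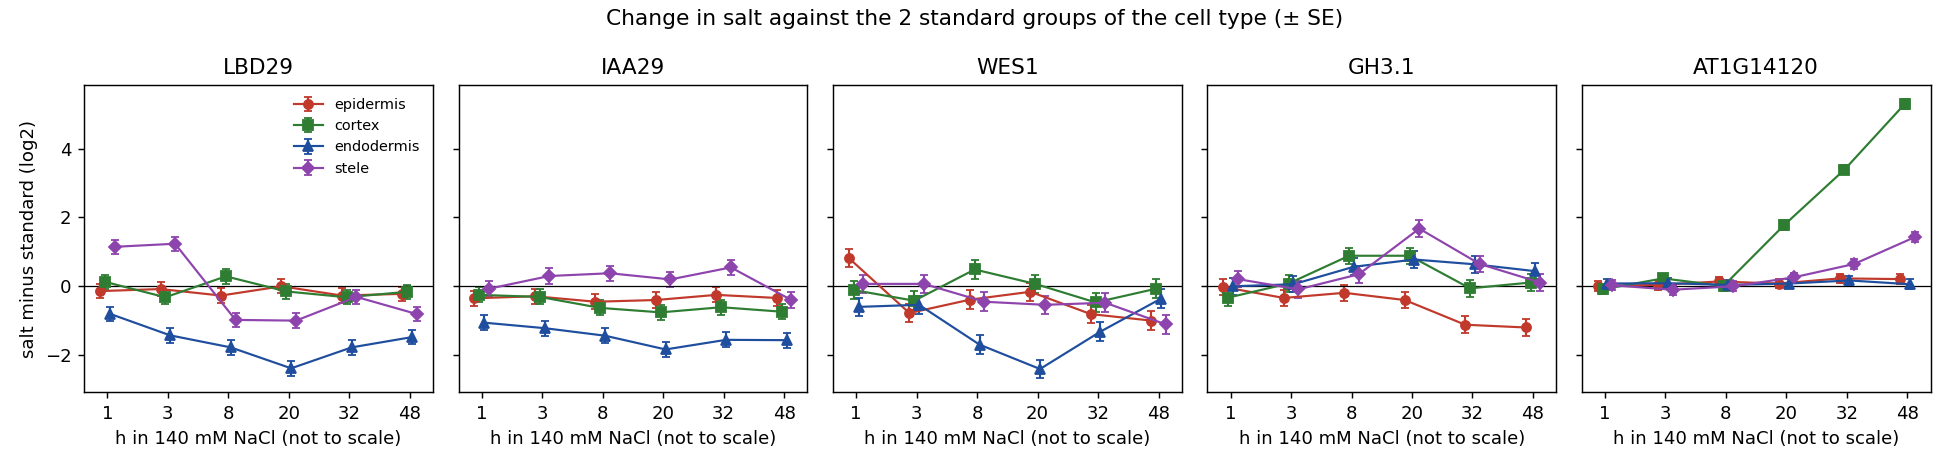
Salt minus standard (log2, ± SE) for each gene over the hours in NaCl, with 1 line per cell type and times evenly spaced. LBD29 is above 0 in the stele at 1 and 3 h (1.14 and 1.23) and below 0 in the endodermis at every time, and the cortex line of AT1G14120 reaches 5.31.

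WES1 in the endodermis was below standard in the middle of the salt course. Standard arrays read 8.37, 8.59 and 8.64 at 1 h and 8.11, 8.88 and 9.05 at 48 h. In salt the levels were 7.92, 6.56 and 6.19 at 8 h, 6.29, 6.58 and 5.67 at 20 h, and 7.49, 7.43 and 6.90 at 32 h, all below standard. At 48 h, with 8.03, 8.51 and 8.17, they overlapped with it again. The differences were -1.71, -2.42 and -1.33 at 8, 20 and 32 h and -0.37 at 48 h (SE 0.27 each), so the level at 20 h was 5.36-fold lower than standard. LBD29, IAA29 and WES1 all had their lowest endodermis mean at 20 h, the time at which 12.1% of tested genes were lowest in salt.

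Elsewhere the WES1 differences were smaller. In the epidermis it was above all standard arrays at 1 h of salt, with 8.08, 8.06 and 8.67 (0.81 ± 0.27, SE), and below them at 48 h, with 6.29, 6.55 and 6.52 (-1.01 ± 0.27). Against the standard group of the same time these differences were 0.56 and -0.76. At 32 h 1 epidermis array read 5.22 beside 7.20 and 7.51. In the cortex the differences went in both directions, -0.43 at 3 h, 0.48 at 8 h and -0.48 at 32 h, each without overlap. In the stele it overlapped with standard at all times, and the largest difference was -1.12 at 48 h. The standard array that stood apart read 8.04 where the other 5 read between 8.77 and 9.28. Without it the salt arrays still overlapped with standard at 1 and 3 h and lay below it at 8, 20, 32 and 48 h, with differences of -0.63, -0.72, -0.66 and -1.28.

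GH3.1, of the same enzyme family as WES1, was like it in the epidermis and cortex and unlike it in the endodermis and stele. Across the 8 conditions Pearson's r between them was 0.78 for epidermal and 0.59 for cortical cells, but -0.86 for the endodermis and -0.36 for the stele, as a description of group means from shared arrays. In the stele at 20 h it read 6.28, 5.31 and 6.71, above all standard arrays, which lay between 4.30 and 4.87. The difference was 1.67 ± 0.24 (SE), a level 3.18-fold higher. By 48 h the stele levels of 4.19, 4.64 and 4.75 overlapped with standard. The cortex was also above standard at 8 h, as WES1 was, and at 20 h, with 5.42, 5.15 and 5.37 and then 5.58, 5.34 and 5.01, a difference of 0.88 at both times. The endodermis was above standard at 20 and 32 h, by 0.77 and 0.63, while WES1 there was below it. In the epidermis, where GH3.1 had its highest standard level, it was lower at 48 h of salt, with 5.20, 5.25 and 4.95 (-1.21 ± 0.24, SE). That size depended on the baseline and was -0.97 against the 48 h standard arrays alone.

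AT1G14120 in the cortex stayed at its starting level through 8 h of salt, with 2.65, 2.75 and 2.81 at that time. It then read 4.68, 4.45 and 4.39 at 20 h, 5.99, 6.20 and 6.16 at 32 h, and 7.92, 8.05 and 8.15 at 48 h. The replicates of each time lay close together and no time overlapped with another from 20 h on. The differences from standard were 1.77, 3.39 and 5.31 (SE 0.14 each), and the last is a level 39.6-fold higher on the deposited scale, on which a baseline near the bottom of the arrays makes a fold approximate. The probe set passed from the lower end of the array to above 45.9%, 63.6% and 85.2% of all probe sets at 20, 32 and 48 h.

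In the stele AT1G14120 was above standard later and by less. It read 3.26, 3.03 and 3.50 at 32 h and 3.08, 4.60 and 4.44 at 48 h, against 2.47 to 2.76 in standard medium, and the differences were 0.64 and 1.42. The replicates at 48 h were far apart. In the epidermis and the endodermis the salt arrays overlapped with standard at all 6 times, and no array exceeded 3.06. Of the cortex markers in the stele sort, AT1G62510 averaged 4.20 at 48 h of salt against 8.18 in standard medium. AT1G09750 averaged 3.15 against 3.44, with overlapping arrays. In the cortex sort AT1G62510 was also lower at 48 h of salt, at 9.12 against 10.34. AT1G14130, the next gene along the chromosome in the gene table, differed by 0.56 ± 0.15 (SE; limma adjusted p = 0.000614) in the cortex at 48 h and was called in none of the 24 salt comparisons. Some changes in other sorts came close to 2-fold, with 0.93 in the epidermis and 0.90 in the endodermis at 48 h and -0.97 in the stele at 8 h. An alternative called up to 2 comparisons of AT1G14130 higher or 1 lower.

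Markers of other cell types and signs of RNA quality also differed between salt and standard. In the endodermis sort the 2 listed cortex markers were lower in salt, with AT1G62510 at 9.62 in standard medium and 3.69 at 8 h, and AT1G09750 at 5.67 and 3.18 at 3 h. Their mean level over both genes ran from 7.32 to 8.03 on the standard arrays of the endodermis and from 3.45 to 6.0 on its salt arrays. The epidermis marker EXPA7 had a median of 9.12 on the standard arrays of the endodermis and of 4.58 at 48 h of salt. The stele marker LHW went the other way in the endodermis, from a median of 4.62 in standard medium to 6.19 at 20 h. These markers also changed in the other sorts. LHW was above all standard arrays at 32 h in the epidermis (0.97), the cortex (0.90) and the stele (1.19). In the cells they were listed for, EXPA7 changed by -3.35 at 48 h, and AT1G62510 and AT1G09750 by -2.32 and -1.91 at 8 h. In the cortex sort the endodermis marker GSO1 ran from 8.34 to 9.07 in standard medium and from 7.37 to 7.52 at 48 h of salt, when AT1G14120 was highest. In the stele the mean of the cortex markers ran from 5.37 to 6.31 in standard medium and from 3.23 to 3.47 at 3 h, the time of the highest stele LBD29 mean. The excess of 3′ over 5′ signal for GAPDH, a sign of RNA quality, was 1.43 ± 0.07 (SD, n = 3) at 1 h of salt in the endodermis, against 0.48 ± 0.15 (n = 6) in standard medium. It was above all standard arrays at 3, 8 and 48 h too, with 0.85, 0.89 and 0.71. At 20 h, when LBD29, IAA29 and WES1 were lowest, it overlapped with standard at 0.54 ± 0.20, while the same measure for ubiquitin was above all standard arrays, with 1.19 ± 0.05 against 1.01 ± 0.08. In the cortex the same measure for actin was 4.22 ± 0.22 at 32 h and 3.96 ± 0.10 at 48 h against 3.63 ± 0.19. The part of these measures in the changes of the 5 genes was not tested.

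The wider auxin pathway could be read only in part. Its gene lists were chosen with earlier results of these data known, and genes were named for their largest changes. The p-values of these genes are therefore not free of how they were selected. Of 153 other genes in lists of Aux/IAA repressors, response factors, receptors, GH3 and LBD families, synthesis, transport, inactivation and lateral root initiation, 20 had a probe set paired with 1 gene and 8 passed the filter. Of these 8, 7 changed in at least 1 salt comparison, 4 upward and 4 downward with IAA30 in both by its epidermis call at 1 h, where 58.7% of all tested genes changed, 35.0% upward and 29.3% downward. In single comparisons the median change of the 8 genes ran from -0.57 to 0.73, and that of all tested genes from -0.03 to 0.16. The largest list median was that of the stele at 3 h, where 3 of the 8 rose and 7.36% of all tested genes did. UGT74D1 of the inactivation list fell there (-1.12), and GH3.17 was lower by less than 2-fold (-0.97).

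The 3 list genes that rose in the stele at 3 h did so at the time of the LBD29 peak, when 23.9% of tested genes had their highest stele salt mean. LBD16, a relative of LBD29 that also acts in lateral root initiation, read 10.27, 10.22 and 10.26 at 3 h against 7.16 to 8.78 in standard medium and rose by 1.91 ± 0.25 (SE; limma adjusted p = 1.05e-09). It had risen by 1.28 at 1 h (limma adjusted p = 2.11e-05). Its lowest standard value came from the array that stood apart, and without that array the rise at 3 h was 1.67 (limma adjusted p = 1.48e-08). In the endodermis LBD16 stayed between 8.84 and 10.10 on all salt arrays, against 9.01 to 9.41 in standard medium, and was not called at any time. IAA18, an Aux/IAA repressor gene, rose in the stele at 3 h by 1.08 ± 0.21 (SE; limma adjusted p = 6.69e-06), which became 0.96 without stele standard 48 h replicate 2. IAGLU, a glucosyltransferase gene that acts on auxin, rose there by 1.14 ± 0.14 (SE; limma adjusted p = 1.52e-10), or 0.98 without stele salt 3 h replicate 3, and was also called in the epidermis at 3 and 8 h and in the endodermis at 3 h (1.01, 1.11 and 1.03), each of which passed under 2-fold with some array left out (lowest 0.90, 0.95 and 0.97, without salt 3 h replicate 1, salt 8 h replicate 1 and salt 3 h replicate 3).

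In the endodermis IAA30, another Aux/IAA gene, fell in salt from 8 h on and was lowest at 20 h. Its standard arrays ran from 8.11 to 9.93, and at 20 h it read 6.25, 6.68 and 5.89 (-3.0 ± 0.28, SE; limma adjusted p = 1.5e-14). It fell also in the cortex from 20 h on, with changes of -1.08, -1.61 and -1.64, and in the stele at 48 h (-1.29, with overlapping arrays). With the 1 h baseline the changes of IAA30 were -0.88 in the cortex at 20 h and -0.96 in the stele at 48 h, both under 2-fold. At 3 h in the endodermis its change of -1.03 became -0.87 without endodermis standard 48 h replicate 2 or 3, and passed under 2-fold also without endodermis salt 3 h replicate 1 (-0.90) or standard 1 h replicate 1 (-0.95) or 3 (-0.99) and under both rescalings. In the epidermis at 1 h it was called higher, by 1.06 (limma adjusted p = 0.00174), with overlapping arrays. That call was lost without epidermis standard 48 h replicate 1, an array that stood apart (0.77), without epidermis salt 1 h replicate 2 (0.94) or 3 (0.97), under both rescalings and with the 1 h baseline (0.71).

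The tested GH3 genes and 1 of the 3 tested genes of the inactivation list were called lower in some comparisons and higher in none, while IAGLU of that list rose and AT1G14130 was not called. GH3.17, which conjugates auxin to glutamate, fell in 13 of 24 comparisons (10 to 16 under the alternatives) and rose in none, with the largest fall in the epidermis at 48 h, from 9.10 ± 0.40 (SD, n = 6) to 7.24 ± 0.11 (n = 3; limma adjusted p = 3.36e-17). GH3.3, another auxin-conjugating enzyme gene, fell in 4 of 6 epidermis and 2 of 6 cortex comparisons (4 to 8 in all under the alternatives), most in the epidermis at 32 h (-2.41 ± 0.32, SE; limma adjusted p = 7.62e-10). The cortex calls, at 3 and 32 h, were lost with the 1 h baseline (-0.63 and -0.67). In the epidermis the 3 h call was lost without salt 3 h replicate 3 (-0.78), and the 8 h call with the 48 h baseline (-0.99). GH3.3 was not called in the endodermis or stele. In the endodermis at 48 h it was higher by 0.94 ± 0.32 (SE; limma adjusted p = 0.00813), under 2-fold and with overlapping arrays. An alternative called it higher in at most 1 comparison. UGT74D1, a glycosyltransferase gene, fell in 16 of 24 comparisons (13 to 19 under the alternatives), most in the epidermis at 48 h (-2.39 ± 0.23, SE; limma adjusted p = 6.1e-15). All 3 genes were thus lower in the epidermis at 48 h of salt, where WES1 and GH3.1 also had their lowest epidermis means. The falls of the 3 genes were not confined to late salt. At 3 h the epidermis changes were already -1.46 for GH3.17, -1.27 for GH3.3 and -1.15 for UGT74D1, and GH3.17 was called at 1 h (-1.01). Late time points were low for many genes there, and 24.6% of tested genes had their lowest epidermis salt mean at 48 h.

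**Figure D4:**
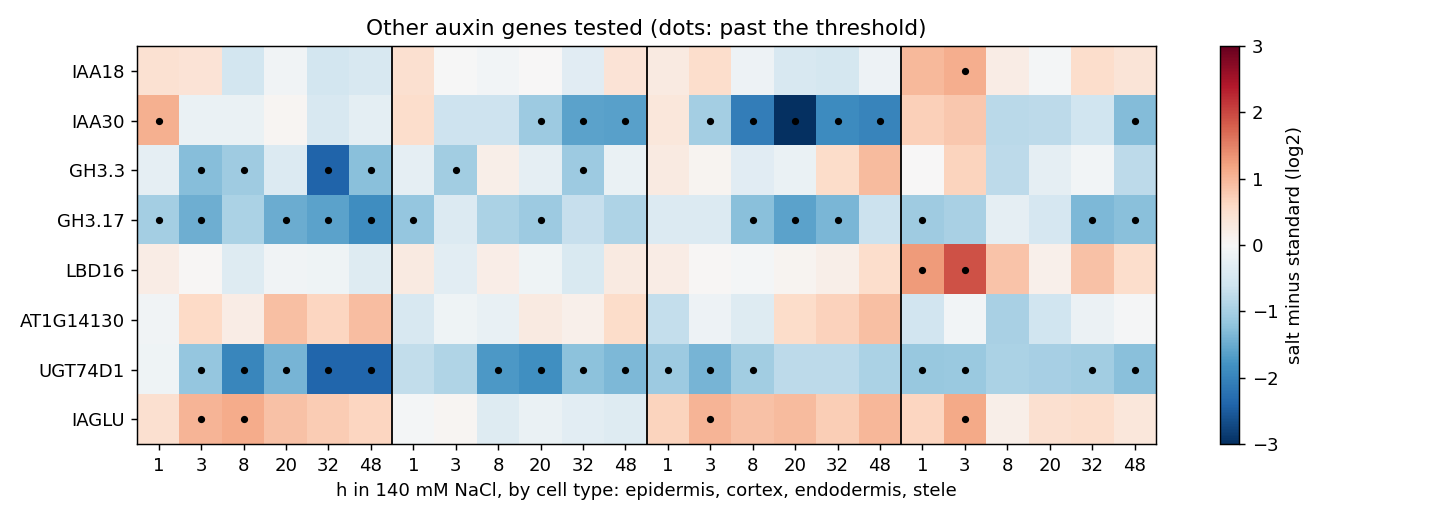
Salt minus standard (log2, colour) for the 8 other auxin genes that passed the filter, in columns of 6 times for the epidermis, cortex, endodermis and stele; dots mark called differences. LBD16 stands out in the stele at 1 and 3 h (1.28 and 1.91), IAA30 in the endodermis at 20 h (-3.0) and UGT74D1 in the epidermis at 48 h (-2.39).

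Likeness to other genes was described by Pearson's r over the 32 group means, which share arrays, sorts and the salt course. Among the 5 genes, r was 0.77 for IAA29 and LBD29, 0.68 for WES1 and LBD29, 0.54 for WES1 and IAA29 and -0.59 for GH3.1 and LBD29. Over all tested genes, IAA29 was most like AT1G27620 (r = 0.93), AT3G15680 (0.92) and AT5G44530 (0.90). AT1G27620 averaged 5.27 ± 0.32 (SD, n = 6) in the endodermis in standard medium and between 3.94 and 4.27 in salt. LBD29 was most like AT3G11150 (0.90), AT2G21560 (0.89) and AT5G43180 (0.86). AT3G11150 had the stele peak as well, with 6.16 ± 0.18 (n = 3) at 3 h against 5.32 ± 0.58 (n = 6).

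AT1G14120 was most like AT3G26460 (r = 0.94), JAL22 (0.93) and AT5G38020 (0.92). AT3G26460 in the cortex averaged 2.66 ± 0.26 (SD, n = 6) in standard medium and 3.72, 5.64 and 6.97 at 20, 32 and 48 h of salt. JAL22, a jacalin-related lectin gene, was at 3.64 ± 0.20 in standard medium and at 5.87, 5.62 and 8.12 at these times. GH3.1 had r = 0.88 with each of AT5G41800, AT3G05390 and AT2G45010. AT5G41800 in the stele was 7.30 ± 0.24 (n = 3) at 20 h against 7.19 ± 0.15 (n = 6) in standard medium, where GH3.1 was 1.67 above its own standard level. WES1 had the weakest best match, AT3G14340 with r = 0.80, followed by bHLH115 (0.78) and AT5G40470 (0.77).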

How the data were processed

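The authors deposited 1 log2 expression value per probe set and array. They were made with GCRMA in Affymetrix Expression Console, neither with a version, per the submitters' processing notes. Array medians ran from 4.51 to 4.97. The files hold no detection calls, so the number of arrays and the distance from an unknown background limit the precision. Of 22810 probe sets, 13513 were paired with 1 gene by the platform annotation. Symbols came from the TAIR10.1 gene table, which matched 13286 of 13356 genes. A gene with more than 1 such probe set was read from the brightest on average.

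limma 3.58.1 (R 4.3.3) fitted 1 mean per group to all 96 arrays, with 64 residual degrees of freedom and empirical Bayes moderation. P-values were adjusted over the 7281 tested genes of each comparison by the Benjamini-Hochberg method. Salt groups were compared with the mean of both standard groups of the cell type. The scripts' fit was tested on simulated data. The members and the gene and marker lists were chosen with earlier results of these data known. Named genes were the 5 members, up to 3 called genes per list with the largest change and no overlap of arrays, AT1G14130, and the 3 genes most like each member. The labels name no batch. Protein and promoter sequences were not used here.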

Additional observations from a re-analysis of the deposited data

Results flagged for a closer look

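In 4 cases every array of one cell type lay above its reference and every array of another lay below, and none of these differences was itself tested. For WES1 at 8 h of salt, the cortex was above standard by 0.48 and the endodermis below it by 1.71 (a change of -1.71), so the changes differed by 2.19. For WES1 on standard medium, the 48 h arrays were above the 1 h arrays in the cortex (0.24) and below them in the epidermis (-0.49), a difference of 0.73, and 2 of these 3 epidermis arrays at 48 h stood apart from their group. For LBD29 at 3 h of salt, the stele was above standard (1.23) and the cortex below (-0.33), a difference of 1.56. At the same time LBD29 was below standard in the endodermis (-1.44), and the stele and endodermis changes differed by 2.67.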

How the results depend on the processing

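Each value was recomputed with quantile normalization, median centring, no filter, a stricter filter (a group mean of 6), a replicate block, 1 standard time as the baseline, the arrays of 1 cell type alone, and each array left out. No called value changed sign, while 39 of 170 member values, of at most 0.34 in size and none called, did under some alternative. The F results over cell types kept their status in all 120 leave-one-out values, from 24 fits, and in 29 other values. These values cover all 5 genes, with IAA29 and the uncalled AT1G14120 among them. The called member combinations, 7 higher and 19 lower, ranged from 6 to 8 and from 17 to 21 with an array left out. The stricter filter gave 13 lower, since it drops IAA29. The 48 h baseline gave 10 higher and 16 lower, and the 1 h baseline 7 and 18. Of 1056 other salt values of the members, 70 moved by more than 1 SD. The list genes, 4 up and 4 down, were 3 and 5 under both scalings and 6 and 5 with the 1 h baseline. LBD29 in the endodermis, 48 h against 1 h on standard medium, passed 2-fold (-1.04) without endodermis standard 48 h replicate 2, and IAA18 in the stele at 3 h missed it with the 48 h baseline. The endodermis lead over the stele for LBD29 became 1.03 and 1.04 under quantile normalization and median centring. With the replicate block the member combinations were again 7 and 19 and the list genes 4 and 4. Deviations of same-numbered samples had mean correlations from -0.021 to 0.04 over the cell types. Single pairs varied widely, with 40.5% above 0.1 in the epidermis and 35.7% in the stele. These means therefore cannot settle whether the numbers pair samples. No other single-gene probe set existed for a member, so that alternative gave no value. The fits without the 3 arrays that stood apart were added after the data were seen.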
